A study of Mus musculus with 16 samples.

Results

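Colons of C57BL/6J mice fed arachidonic acid were compared with colons of the same strain fed oleic acid, on 4 of the 16 arrays of a study of dietary fat. The 4 arrays were all those with the strain C57 and the diet AA or OA in their titles, 2 pools for each diet. The male mice received Enterococcus faecalis, E. faecium and a complex gut flora by gavage. They then spent 6 weeks on a diet based on AIN-76A with 5% fat, and their colons were taken when they were over 77 days old, following a 14 h fast and 2 h of refeeding, although a label field gives their age as 5 weeks. The AA diet held 3.7% arachidonic acid (n-6) and 1% corn oil, and the OA diet, the control for the added fatty acid, held 3.7% oleic acid and 1% corn oil. Set beside them below are C57 mice on eicosapentaenoic acid (EPA, n-3, 3.7% with 1% corn oil), C57 mice on unmodified AIN-76A (CO), and mice that lack interleukin 10 (Il10-/-) on AA and OA. Each group held 6 mice, each array an equimolar RNA pool of 2 to 3 of them, and food was matched daily to the intake of the Il10-/- mice.

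Arachidonic acid is the n-6 fatty acid that phospholipases release from membranes and that cyclooxygenases, lipoxygenases and cytochrome P450 epoxygenases turn into prostaglandins, leukotrienes and epoxides. Oleic acid is a monounsaturated fatty acid that is not a substrate of these enzymes. In the gut wall, macrophages below the epithelium take up dying cells and lipids and are among the cells that make these mediators. Polyunsaturated fatty acids also bind the nuclear receptors of the PPAR family and lower the processing of SREBP-1, which drives lipogenic genes.

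The deposited value of a feature is taken as the log2 ratio of colon RNA over a common reference RNA, so a difference of 1 between groups is a doubling. Differences are given as AA minus OA, each diet the mean of 2 arrays, with the standard error (SE) of the limma fit. The SE rests on a variance per gene that was pooled over all groups of the study, Il10-/- mice included, and moderated by limma. It is therefore not the spread of the compared pools alone, and is too small for genes whose AA pools lie far apart. Of 44290 features, 34212 were measured on all 4 arrays, which gave 17091 named genes and 6981 unnamed features, 24072 in all. A feature at its array's most shared value, which 728 to 902 features of an array held, was taken as not measured. Muc2, which defines goblet cells, and Car1, which defines colonocytes, were at that value on all 4 arrays.

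No gene passed an adjusted p of 0.05 (0% of 24072, limma with Benjamini-Hochberg adjustment), and the smallest adjusted p was 0.485. At an unadjusted p under 0.05, 489 genes were higher on AA (2.03%) and 305 were lower (1.27%), together 794 or 3.3%, where 1204 would pass by chance if no gene differed. The values given for single genes in C57 mice are therefore measured differences and not called changes, with an adjusted p of 0.485 or more, and p under 0.05 below refers to the unadjusted p. Intervals are 95% intervals of the fit. The pools of a diet also differed from each other: the median absolute difference over genes was 0.131 between the AA pools and 0.0988 between the OA pools, against 0.0807 between the diet means. AA pool 2 correlated over all genes with the OA pools at 0.964 and 0.970, and with AA pool 1 at 0.921. AA pool 1 correlated with EPA pool 1 at 0.950, so it stood apart from the other AA pool, and values are given for each pool for that reason. Whether both pools of a diet held different mice is not in the labels. The SE thus covers the spread between arrays of a group, pooled over all groups, part of which may be technical.

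Among the 46 gene lists examined, that of macrophages had the largest share of members higher on AA at p under 0.05. The lists were chosen with earlier results of these data known, and this one is singled out for that share, so its counts are a description and no test. Of 18 listed macrophage and monocyte genes 15 were measured, and 15 of these 15 had a difference above 0, against 49.9% of all genes tested. Of them 9 were higher at p under 0.05 and 0 were lower, beside 2.03% and 1.27% of all genes, and on 11 both AA arrays lay above both OA arrays, beside 16.9% of all genes. The median difference was 0.36, against -0.00 over all genes, and it was alike in each AA pool: 0.42 in pool 1 and 0.40 in pool 2 over the OA mean. The mean level of the 15 genes was 0.30 and 0.28 on the AA arrays and -0.03 and -0.13 on the OA arrays. In bulk tissue, more macrophages and more RNA of these genes per macrophage cannot be told apart. Cd68 and Csf1r, which mark most macrophages, and Ly6c2 were not measured. Without OA pool 2 the count at p under 0.05 dropped from 9 to 4, while the median stayed at 0.36.

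Among the single members, C1qc, a chain of the complement recognition protein C1q that gut macrophages make, read 0.63 and 0.69 on AA and 0.13 and 0.09 on OA, a difference of 0.56 ± 0.10 (adjusted p = 0.775). Mrc1, the mannose receptor, read 0.38 and 0.05 on AA and -0.39 and -0.56 on OA (0.69 ± 0.14). Cd163, the scavenger receptor for haemoglobin, read 0.96 and 0.62 on AA and 0.33 and 0.12 on OA (0.57 ± 0.12). For these 3 genes the AA and OA arrays did not overlap. Lyz2, the lysozyme of macrophages and neutrophils, read 0.40 and 0.36 on AA and -0.23 and -0.52 on OA (0.75 ± 0.23). Other members with p under 0.05 were the Fc receptors Fcgr3 (0.36) and Fcgr1 (0.37), Aif1 (0.46), C1qa (0.31) and the macrophage receptor gene Adgre1 (0.44). Not every member showed this: C1qb read 0.36 and 0.52 on AA and 0.44 and 0.31 on OA, and Cx3cr1, the fractalkine receptor, differed by 0.04 ± 0.10.

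Gpnmb, F13a1 and Clec10a are not in that list but are also known from macrophages. All 3 had p under 0.05, but they were named because of their values in this comparison, so their p adds no support to the list. Gpnmb, a glycoprotein of lipid-laden and phagocytic macrophages, read 1.63 and 0.30 on AA and -0.99 and -0.95 on OA, a difference of 1.93 ± 0.29 or 3.82-fold (95% interval 1.29 to 2.57, adjusted p = 0.485). Its AA pools differed from each other by over 1, and the lower of them still lay above both OA pools. The SE and interval of Gpnmb rest on the variance pooled over all groups, so they do not reflect that gap in full. F13a1, the A subunit of coagulation factor XIII, read 1.24 and 0.90 on AA and 0.12 and 0.14 on OA (0.94 ± 0.16, adjusted p = 0.485). Clec10a, a galactose-type lectin, read 1.17 and 0.51 on AA and -0.25 and -0.31 on OA (1.12 ± 0.25).

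**Figure D1:**
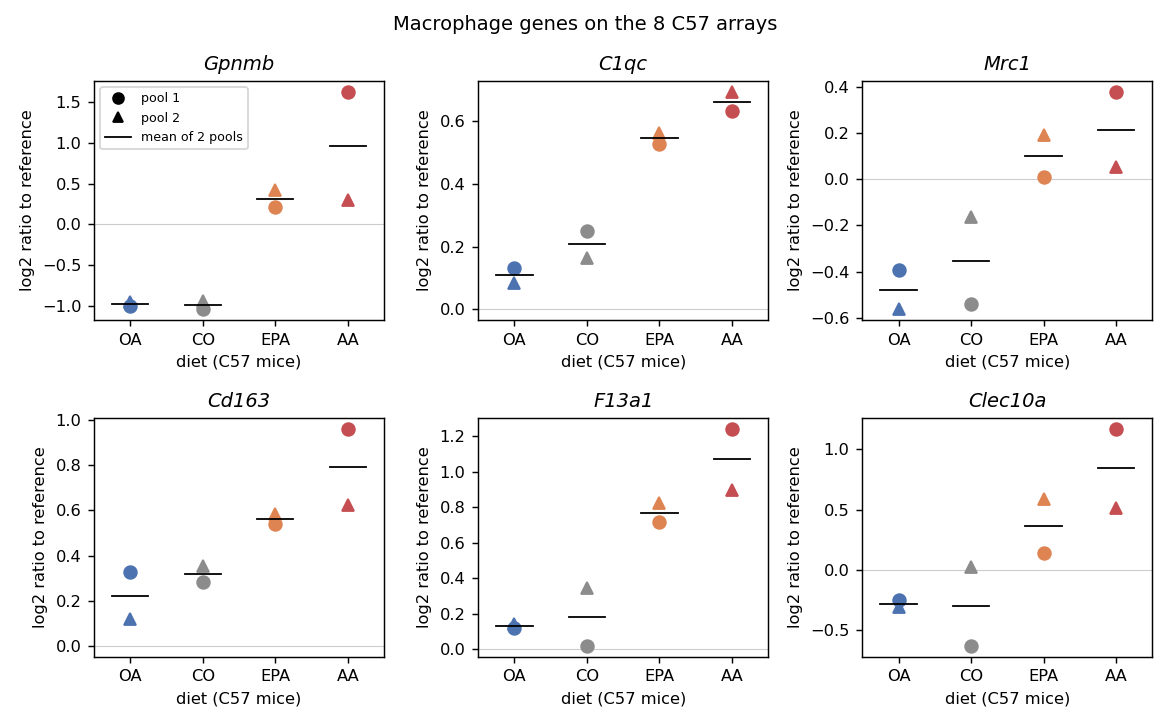
Log2 ratio to the reference RNA of 6 genes known from macrophages on the 8 C57 arrays, by diet; circles are pool 1, triangles pool 2 and bars the mean of both. The genes were chosen by their values in this comparison. In each panel both AA pools lie above both OA pools, and Gpnmb reads 1.63 and 0.30 on AA against -0.99 and -0.95 on OA.

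The promoters of Gpnmb, which had the smallest p of the comparison, and of the 3 macrophage list members with the smallest p are shown to give the sequence context of these genes. Each runs from 250 bases before to 50 bases after the RefSeq start (build GRCm38.p6), 5′ to 3′ on the gene's strand, at chr6:49036268-49036567 (Gpnmb, plus strand), chr4:136892865-136893164 (C1qc, minus strand), chr2:14229164-14229463 (Mrc1, plus strand) and chr6:124304401-124304700 (Cd163, plus strand). Capitals mark matches on either strand to GAGGAAGT or AGGAAGTG, letters of the kind bound by PU.1 and other ETS factors; the motifs share 7 letters and overlap in the C1qc window.
Gpnmb: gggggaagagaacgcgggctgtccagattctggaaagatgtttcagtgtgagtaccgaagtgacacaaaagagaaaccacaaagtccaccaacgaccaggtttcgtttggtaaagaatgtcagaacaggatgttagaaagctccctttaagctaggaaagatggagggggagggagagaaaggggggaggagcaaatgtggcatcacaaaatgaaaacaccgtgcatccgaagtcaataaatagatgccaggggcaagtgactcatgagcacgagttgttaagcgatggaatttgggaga
C1qc: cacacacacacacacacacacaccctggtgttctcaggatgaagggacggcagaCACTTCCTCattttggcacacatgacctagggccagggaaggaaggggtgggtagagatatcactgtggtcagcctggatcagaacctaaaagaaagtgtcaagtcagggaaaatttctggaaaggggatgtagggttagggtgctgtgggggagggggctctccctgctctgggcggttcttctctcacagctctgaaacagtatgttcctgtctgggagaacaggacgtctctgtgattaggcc
Mrc1: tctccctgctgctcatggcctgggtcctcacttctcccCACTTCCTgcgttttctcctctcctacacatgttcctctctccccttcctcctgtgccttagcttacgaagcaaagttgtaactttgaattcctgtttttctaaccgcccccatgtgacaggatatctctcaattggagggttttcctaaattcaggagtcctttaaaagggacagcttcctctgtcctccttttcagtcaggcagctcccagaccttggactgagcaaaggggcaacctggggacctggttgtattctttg
Cd163: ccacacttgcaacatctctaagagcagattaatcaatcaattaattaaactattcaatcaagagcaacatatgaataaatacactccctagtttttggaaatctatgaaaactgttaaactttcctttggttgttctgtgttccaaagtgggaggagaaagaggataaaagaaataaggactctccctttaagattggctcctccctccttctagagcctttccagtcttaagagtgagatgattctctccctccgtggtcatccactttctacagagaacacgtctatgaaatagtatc
The C1qc window held both motifs and the Mrc1 window 1 of them, each on the strand opposite to the one printed, while the Gpnmb and Cd163 windows held neither. Of 32851 RefSeq promoter windows of this length, 3.2% held GAGGAAGT, 4.07% held AGGAAGTG and 5.66% either. Of the 12 measured macrophage genes with an entry, 2 held either motif. A match is a description of these letters and no evidence of binding.

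Of 19 listed adipocyte genes 16 were measured and 14 were above 0. At p under 0.05, 7 were higher and 0 lower, beside 2.03% and 1.27% of all genes, and on 12 the AA arrays lay above the OA arrays, beside 16.9% of all genes. Their median difference was 0.49, with 0.63 in AA pool 1 and 0.32 in AA pool 2 over the OA mean. Car3, a carbonic anhydrase abundant in fat cells, read 1.90 and 0.49 on AA and -0.52 and -0.26 on OA (1.59 ± 0.44). Plin1, the coat protein of fat droplets, read 2.28 and 0.96 on AA and 0.28 and 0.73 on OA (1.11 ± 0.41). Fabp4, the fatty acid binding protein of fat cells and of some macrophages, read 2.40 and 1.01 on AA and 0.36 and 0.50 on OA (1.27 ± 0.46). In each of these 3 genes AA pool 1 was far above AA pool 2. Adipoq, the fat cell hormone adiponectin, read 2.68 and 2.55 on AA and 1.75 and 2.22 on OA, and Lep, which encodes leptin, read 0.87 and 0.42 on AA and 0.17 and 0.44 on OA. Neither passed the unadjusted threshold.

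The mean level of the 16 fat genes was 1.25 and 0.61 on AA and 0.19 and 0.36 on OA, and it varied as much within the other C57 diets: 1.13 and 0.44 on EPA, 0.65 and -0.40 on CO. Without AA pool 1, 0 of the 16 genes had p under 0.05, and without OA pool 1 there were 3. Cd36, a fatty acid transporter of fat cells and macrophages, read 0.23 and -0.82 on AA and -1.63 and -1.55 on OA (1.30 ± 0.38). Lpl, lipoprotein lipase, read 0.33 and -0.83 on AA and -1.46 and -1.38 on OA (1.17 ± 0.38). Both genes were higher in AA pool 1 than in AA pool 2. Lpl is itself a member of the fat list, and Cd36 is not. The part of attached fat tissue in the values of Cd36, Lpl and the lipid genes below was not tested.

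**Figure D2:**
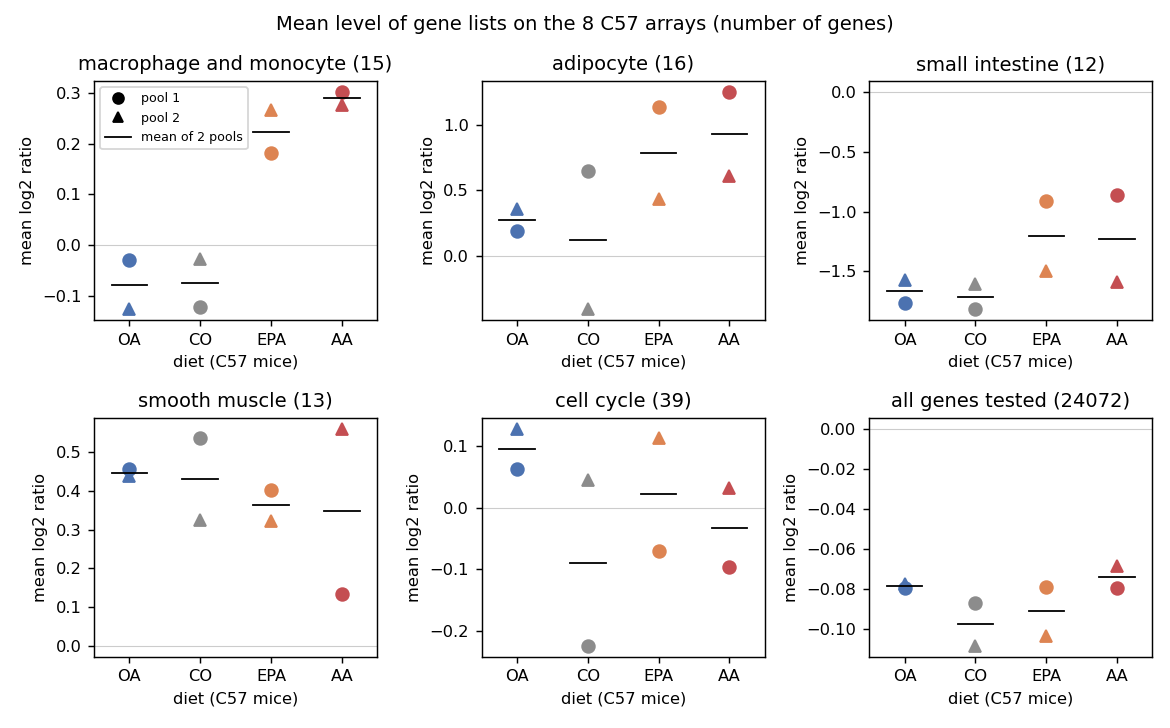
Mean log2 ratio of 5 gene lists and of all genes tested on the 8 C57 arrays, by diet, with the number of genes in brackets; circles are pool 1, triangles pool 2 and bars their mean. Macrophage genes stand at 0.30 and 0.28 on AA against -0.03 and -0.13 on OA, while adipocyte and small intestine genes differ between pools of 1 diet.

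A further set of genes was high in AA pool 1 alone among the 4 arrays. Itln1, the lectin intelectin of secretory gut cells, had the largest difference of any named gene (2.31 ± 0.91), and read -0.19 and -3.16 on AA and -3.68 and -4.28 on OA. Apoa1, the main protein of high density lipoprotein, made in small intestine and liver, read -0.15 and -2.54 on AA and -3.61 and -2.72 on OA. Bcl2l15, of the BCL2 family, read 0.39 and -1.94 on AA and -3.44 and -1.96 on OA. For each of these genes a step in the same direction appeared between the EPA pools. The EPA readings were -0.04 and -3.05 for Itln1, 0.00 and -2.52 for Apoa1, and -0.05 and -1.71 for Bcl2l15. Of 18 small intestine genes 12 were measured. At p under 0.05, 3 of them were higher (Apoa4, Apoa1 and the bile acid binding protein Fabp6), beside 2.03% of all genes. The list's median over OA was 0.39 in AA pool 1 and -0.03 in AA pool 2. Without AA pool 1 the count was 0, without OA pool 1 it was 1 and without AA pool 2 it was 5. The defining lactase gene Lct read -4.08 and -4.37 on AA and -3.96 and -4.51 on OA, and sucrase-isomaltase, Sis, was not measured. The part of the tissue stretch sampled was not tested. Prm1, a sperm protamine and also among the 15 highest genes, read 1.85 and 0.67 on AA and -0.06 and -0.00 on OA (1.30 ± 0.30).

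**Figure D3:**
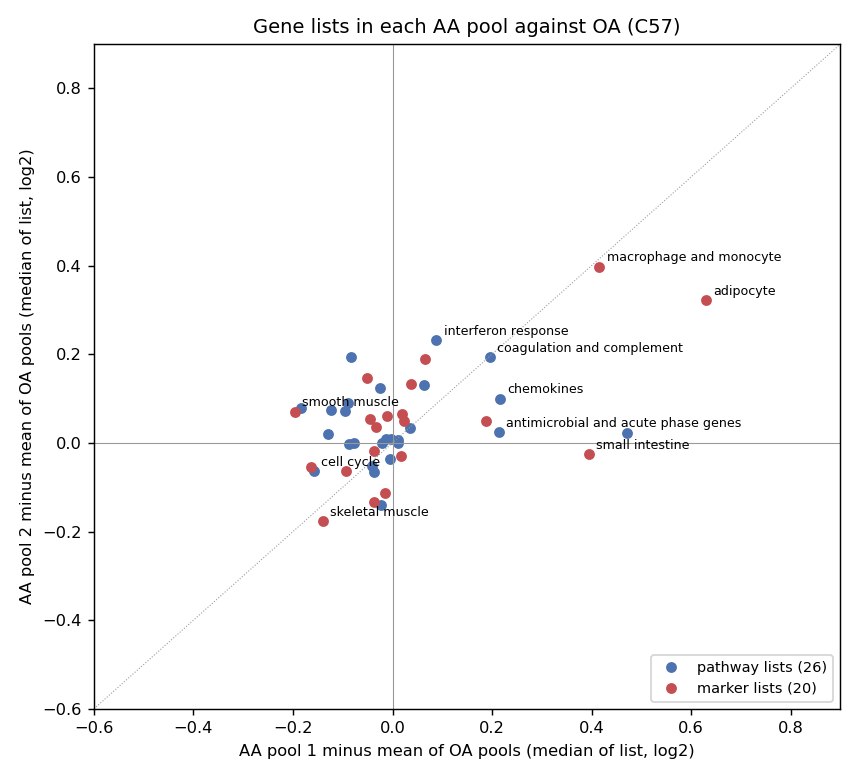
Median of 46 gene lists in AA pool 1 (horizontal) and AA pool 2 (vertical), each minus the mean of the OA pools, in log2 units; blue points are 26 pathway lists and red points 20 marker lists, and the dotted line marks equal values. The macrophage list lies near that line at 0.42 and 0.40, and the small intestine list at 0.39 and -0.03.

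Of 30 listed complement and coagulation genes 25 were measured, 17 above 0 and 8 below 0, with a median of 0.20 that was alike in AA pool 1 (0.20) and AA pool 2 (0.19). Of them 10 were higher and 0 lower at p under 0.05, beside 2.03% and 1.27% of all genes; F13a1 above is one of the 10, and C1qa and C1qc are also in the macrophage list. C2, a protease of the classical pathway, read -0.88 and -1.23 on AA and -1.71 and -1.61 on OA (0.60 ± 0.15). Thbd, the thrombin receptor thrombomodulin, read 0.28 and -0.01 on AA and -0.59 and -0.37 on OA (0.61 ± 0.17). C4b (0.51), the C1r gene C1ra (0.55), the complement inhibitor Cd55 (0.39) and von Willebrand factor, Vwf (0.45), were also above at p under 0.05. Without AA pool 1 or without OA pool 2 the count was 6.

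Of 32 chemokine genes 28 were measured, 24 of them above 0, against 49.9% of all genes, with a median of 0.20. At p under 0.05, 4 were higher and 0 lower, beside 2.03% and 1.27% of all genes. These 4 attract myeloid cells or eosinophils. Ccl9 read 0.26 and 0.14 on AA and -0.13 and -0.18 on OA (0.35 ± 0.09). Ccl11, the eosinophil attractant eotaxin, read 0.97 and 0.79 on AA and 0.46 and 0.12 on OA (0.59 ± 0.19). Ccl2 (0.51), the main attractant of monocytes, and Ccl8 (0.68) also had p under 0.05, and without OA pool 2 the count was 1. Ccl20, an epithelial chemokine, was high in AA pool 1 alone, with 1.83 and 0.22 on AA and 0.24 and 0.32 on OA.

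Interferon response genes were above 0 in 35 of 45 measured members (48 listed), with a median of 0.13. At p under 0.05, 4 were higher and 0 lower, and on 19 the AA arrays lay above the OA arrays, beside 2.03%, 1.27% and 16.9% of all genes. The GTPase Igtp read -2.05 and -1.33 on AA and -2.27 and -2.62 on OA (0.75 ± 0.22), and Bst2, which tethers virus particles, read -0.93 and -0.67 on AA and -1.12 and -1.06 on OA (0.29 ± 0.12). For this list the higher pool was AA pool 2, with a median of 0.23 against 0.09 in pool 1. The count was 9 without AA pool 1, 2 without OA pool 1 and 0 without AA pool 2 or OA pool 2. Inflammatory cytokines and receptors had a median of -0.00 over 35 members, with 2 higher and 1 lower.

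Among 26 measured antimicrobial and acute phase genes (36 listed) the median was 0.22, with 0.21 in AA pool 1 and 0.02 in AA pool 2 over the OA mean. At p under 0.05, where 2.03% of all genes were higher and 1.27% lower, 3 were higher and 0 lower: Itln1, Lyz2 and Duoxa2. That count was 2 without AA pool 1 and 8 without AA pool 2. Duoxa2, the maturation factor of the epithelial hydrogen peroxide maker DUOX2, read 1.36 and 1.33 on AA and 0.60 and 0.45 on OA (0.82 ± 0.23). Unlike Itln1, its AA pools were nearly equal. Among other immune lists, mast cell and eosinophil genes had a median of -0.02 over 15 members, with 2 higher, the mast cell proteases Cpa3 (0.35) and Cma1 (0.28), and 1 lower, the tryptase Tpsb2 (-0.33). The count of higher mast cell genes was 0 without AA pool 1 or OA pool 1. Genes of MHC class II and antigen presentation were above 0 in 16 of 23, with a median of 0.04 and 1 higher, H2-DMb1 (0.38). Neutrophil genes had a median of -0.04 over 12 members with 0 at p under 0.05, B and plasma cell genes 0.03 over 18 with 1 lower, and T and cytotoxic cell genes 0.06 over 17 with 1 higher, the granzyme gene Gzma (0.54 ± 0.20).

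Stromal and vessel genes were higher in part. Of 14 fibroblast genes 4 had p under 0.05, all higher, and of 31 measured collagen and matrix genes (34 listed) 5, all higher, with medians of 0.09 and 0.09. Over all genes, 2.03% were higher and 1.27% lower at p under 0.05. When an AA or OA pool was left out, the collagen and matrix median ran from 0.03 to 0.16 and the fibroblast median from 0.06 to 0.21. Lum, the collagen-binding proteoglycan lumican, is in both lists and read 0.09 and -0.55 on AA and -1.14 and -1.16 on OA (0.92 ± 0.21). Dpt, the matrix protein dermatopontin, read 1.23 and 1.14 on AA and 0.77 and 0.77 on OA (0.42 ± 0.11). Cd248, the endosialin of pericytes and fibroblasts, chosen after its values were seen, read 0.29 and 0.43 on AA and -0.25 and -0.29 on OA (0.64 ± 0.10, adjusted p = 0.485). Of 15 endothelial genes 4 were higher, led by Ramp2, a partner of the adrenomedullin receptor, at -0.31 and -0.73 on AA and -1.11 and -0.94 on OA (0.50 ± 0.12), and the count was 1 without AA pool 1 and 2 without OA pool 2. The smooth muscle list had a median of -0.06 with 0 of 13 at p under 0.05, and its mean level was 0.13 and 0.56 on AA and 0.46 and 0.44 on OA.

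Of 35 measured genes of arachidonic acid release and re-esterification (39 listed), 0 were higher and 2 lower at p under 0.05, beside 2.03% and 1.27% of all genes, with a median of -0.02. Acsl3, an acyl-CoA synthetase of the endoplasmic reticulum and fat droplets, read 1.53 and 1.55 on AA and 1.98 and 2.22 on OA (-0.56 ± 0.16). The secreted phospholipase Pla2g1b read -0.47 and -0.49 on AA and -0.24 and -0.13 on OA (-0.30 ± 0.09). For the cytosolic phospholipase Pla2g4a, which releases arachidonic acid, the difference was -0.08, with a 95% interval of -0.50 to 0.35. The arachidonate-preferring genes Acsl4 (-0.04, interval -0.43 to 0.34), Lpcat3 (-0.02, interval -0.45 to 0.41) and Mboat7 (-0.05, interval -0.36 to 0.26) gave intervals on both sides of 0.

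In the prostaglandin and thromboxane list, 25 of 28 genes were measured, with a median of -0.02. At p under 0.05, 2 were higher and 1 lower, beside 2.03% and 1.27% of all genes. The count of higher genes was 0 without AA pool 1, 1 without OA pool 1 and 5 without AA pool 2. Ptgs2, the inducible cyclooxygenase, was the lower gene and read -0.03 and -0.13 on AA and 0.27 and 0.26 on OA (-0.34 ± 0.14). Its arrays did not overlap between diets. The receptor genes Ptger3, for prostaglandin E2, and Ptgdr, for prostaglandin D2, were the higher ones. Ptger3 read 0.49 and 0.14 on AA and -0.20 and -0.16 on OA (0.50 ± 0.14), and Ptgdr 0.30 and 0.19 on AA and -0.24 and -0.19 on OA (0.47 ± 0.15). The synthase Ptges (0.30, interval -0.13 to 0.74) and the degrading enzyme Hpgd (-0.17, interval -0.76 to 0.41) did not reach p under 0.05, and the constitutive cyclooxygenase Ptgs1 was not measured. The 29 measured lipoxygenase, leukotriene and epoxygenase genes (43 listed) had a median of 0.00. Beside the same shares of all genes, 1 was higher and 0 lower. It was Alox5ap, the partner of 5-lipoxygenase, at 0.50 and 0.31 on AA and 0.05 and 0.10 on OA (0.33 ± 0.11), while 5-lipoxygenase itself, Alox5, differed by 0.06, with an interval of -0.13 to 0.25.

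Of 21 measured desaturases and elongases (22 listed) 10 were above 0, and the median was -0.00. At p under 0.05, 1 was higher, Fads3 (0.34 ± 0.15), where 2.03% of all genes were higher and 1.27% lower. The desaturases that make polyunsaturated fatty acids differed by -0.18 (Fads1, interval -0.63 to 0.28) and 0.07 (Fads2, interval -0.21 to 0.34). Scd1, which makes oleic acid from stearic acid, read 0.86 and 0.19 on AA and 0.23 and 0.06 on OA, a difference of 0.38 with an interval of -0.94 to 1.71. The factor Srebf1 (-0.21, interval -0.56 to 0.14), the synthase Fasn (0.29, interval -0.19 to 0.77) and the sterol enzyme Sqle (-0.02, interval -0.34 to 0.29) also gave intervals on both sides of 0, and Scd2 was not measured. Of 21 measured genes of fatty acid and triglyceride synthesis 16 were above 0, and 3 were higher and 0 lower at p under 0.05, among them the acyltransferase Dgat2 at 0.89 and 0.84 on AA and 0.27 and 0.56 on OA (0.45 ± 0.13). The median of that list was 0.28, made of 0.47 in AA pool 1 and 0.02 in AA pool 2, the same order of pools as in the fat list, and the count was 10 without AA pool 2, 1 without AA pool 1 and 0 without OA pool 1. Cholesterol synthesis genes had 0 of 20 at p under 0.05.

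Of 46 listed genes of fatty acid oxidation and PPAR alpha targets, 38 were measured, with a median of 0.02. At p under 0.05, 4 were higher and 0 lower, beside 2.03% and 1.27% of all genes. Acot1, a cytosolic acyl-CoA thioesterase and a well known PPAR alpha target, was the clearest, at -1.31 and -1.40 on AA and -2.00 and -1.84 on OA (0.57 ± 0.13, adjusted p = 0.870). Both its AA pools were alike and lay above both OA pools. Vnn1 (0.88 ± 0.31), Pex11a (0.41 ± 0.16) and Cd36 were the others. Of other targets of the same receptor, Cyp4a10 differed by -0.16 (interval -0.37 to 0.05) and Pdk4 by -0.10 (interval -0.58 to 0.39). The carnitine transferase gene Cpt1a differed by -0.15 (interval -0.56 to 0.25), and Ppara itself by -0.14 (interval -0.51 to 0.22). Angptl4 read 0.81 and -0.35 on AA and -0.61 and -0.59 on OA, a difference of 0.83 (interval -0.08 to 1.75). None of these genes reached p under 0.05, and their intervals lie on both sides of 0. A part of PPAR alpha was not tested. Ucp2 was not measured. Without AA pool 1 or without OA pool 1, 2 members had p under 0.05.

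Of the 38 genes that differed by over 1 in size, 37 were higher on AA, and 149 genes differed by over 1 between the AA pools. Cell cycle genes were below 0 in 34 of 39 measured members (41 listed), against 50.1% of all genes, with a median of -0.12. At p under 0.05, 4 were lower and 0 higher, beside 1.27% and 2.03% of all genes, and on 19 both AA arrays lay below both OA arrays, beside 14.7% of all genes. Tk1, thymidine kinase of the S phase, read 0.54 and 1.04 on AA and 1.42 and 1.04 on OA (-0.44 ± 0.18), and Orc1, of the origin recognition complex, read 0.17 and 0.19 on AA and 0.50 and 0.33 on OA (-0.23 ± 0.10). Their mean level of 0.03 in AA pool 2 lay just below the 0.06 of OA pool 1, and the count at p under 0.05 was 0 without AA pool 1 and 1 without OA pool 1. Immediate early genes had 4 of 22 lower and 0 higher. These were Atf3 (-0.50 ± 0.15), Nr4a1 (-0.55 ± 0.19), Fosl1 (-0.27) and Ier2 (-0.26), genes that stimuli of many kinds switch on within minutes, and the count was 0 without AA pool 2, 2 without OA pool 1 and 1 without OA pool 2.

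Several of the named genes with the lowest differences at p under 0.05 are known from epithelia. S100a14, a calcium binding protein of epithelia, read 0.16 and 0.31 on AA and 1.18 and 1.30 on OA, but EPA and CO pools of C57 mice spread from 0.02 to 1.55. Wfdc2, a secreted protease inhibitor, read -2.08 and -1.55 on AA and -0.95 and -0.95 on OA (-0.86 ± 0.26). Trpm6, the magnesium channel of the colon surface, read 1.06 and 1.52 on AA and 1.96 and 1.99 on OA (-0.68 ± 0.25). Cldn23, a claudin of cell junctions, read 0.42 and 0.89 on AA and 1.25 and 1.24 on OA (-0.59 ± 0.19). Both AA pools lay below both OA pools for these 4 genes, but this was a condition for being named among the lowest. Gsta4, the glutathione transferase that clears the lipid peroxidation product hydroxynonenal, read -0.08 and 0.00 on AA and 0.55 and 0.39 on OA (-0.51 ± 0.11). It leads the xenobiotic metabolism list, of which 53 of 65 genes were measured. At p under 0.05, 2 were higher and 2 lower, beside 2.03% and 1.27% of all genes. The colonocyte list showed no such direction, with 0 of 10 measured members at p under 0.05 and a median of -0.01, and goblet cell genes had 0 of 9 and a median of -0.15.

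Enteroendocrine genes lay on both sides of 0. Cck, the gut hormone cholecystokinin, read 0.15 and 0.14 on AA and -0.48 and -0.42 on OA (0.59 ± 0.11), and Gcg, the precursor of glucagon-like peptides, 0.71 and 0.58 on AA and 0.33 and 0.15 on OA (0.40 ± 0.15). Cpe, a hormone processing enzyme, read 0.06 and 0.41 on AA and 0.71 and 0.54 on OA (-0.39 ± 0.17). The median over 21 measured members was 0.04. At p under 0.05, 2 were higher and 1 lower, beside 2.03% and 1.27% of all genes.

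**Figure D4:**
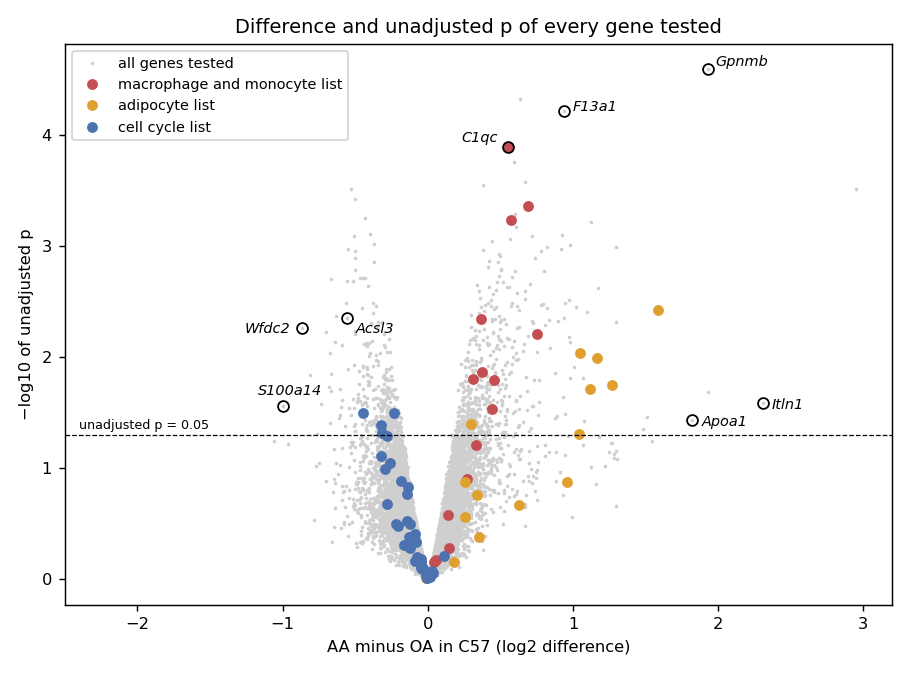
Difference AA minus OA in C57 (log2, horizontal) against −log10 of the unadjusted p for each of the 24072 genes and features tested (grey), with macrophage (red), adipocyte (yellow) and cell cycle (blue) lists in colour, 8 named genes ringed and the unadjusted p of 0.05 dashed. All 15 macrophage genes lie right of 0, 9 of them above the dashed line.

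The same pair of diets in Il10-/- mice used other arrays but the same estimate of each gene's spread. Of the OA pools there, pool 1 is named EPA in a second label field, and the values below follow its title. List values with it counted as EPA were not examined. As titled, the macrophage genes lay the other way. Their median difference was -0.24, with 13 of 15 below 0 and 0 higher and 4 lower at p under 0.05, beside 3.57% and 3.82% of all genes in that strain. In the test of the difference between strains 0 genes of 23912 passed an adjusted p of 0.05, while 10 of the 15 had p under 0.05, beside 3.94% of all genes. That test contains the C57 differences by which the macrophage list stood out, so this count adds no separate support. C1qc read 1.11 and 1.00 on AA and 1.30 and 1.43 on OA in Il10-/- mice, so AA minus OA was lower there by 0.87 on the log2 scale than in C57 (adjusted p = 0.431). Gpnmb read -0.48 and -0.57 on AA and -0.79 and -0.41 on OA in Il10-/- mice, a difference of 0.08 against 1.93 in C57 (adjusted p = 0.780 between strains). Mrc1 differed by 0.07 and Cd163 by 0.27 in Il10-/- mice.

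Complement and coagulation genes had a median of -0.15 in Il10-/- mice, with 15 of 25 at p under 0.05 in the test between strains, collagen and matrix genes -0.24 with 11 of 31, and chemokines -0.07 with 6 of 28. Over all genes 3.94% had p under 0.05 in that test. It contains the C57 differences of these lists described above, so these counts add no separate support either. Cell cycle genes had a median of -0.19 there, with 36 of 39 below 0, where 12138 of all 23912 genes were below 0. Of these members 0 were higher and 9 lower at p under 0.05 in Il10-/- mice, beside 3.57% and 3.82% of all genes. Between strains 0 members had p under 0.05. Fat genes had a median of 0.27, with 0 of 16 at p under 0.05 between strains. Wfdc2 differed by 1.03 in Il10-/- mice against -0.86 in C57 (adjusted p = 0.473 between strains). Ptgs2 differed by -0.74 there (adjusted p = 0.268), the same sign as in C57, and Cck by 0.37. Over 23912 genes the differences of the 2 strains correlated at r = 0.223 and rho = 0.218, and 58.1% had the same sign. Genes are not independent replicates, and the arrays of both strains share the reference RNA. The 1 gene called in Il10-/- mice, the glucuronosyltransferase gene Ugt2b5 (0.00418% of 23912), was higher by 1.12 ± 0.12 there (adjusted p = 0.0152) and read -1.79 and -1.57 on AA and -1.40 and -1.54 on OA in C57. One of the Il10-/- OA pools is named EPA in a second label field, and with it counted as EPA that call was lost. It was also lost with quantile normalization and when any Il10-/- AA or OA pool was left out.

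**Figure D5:**
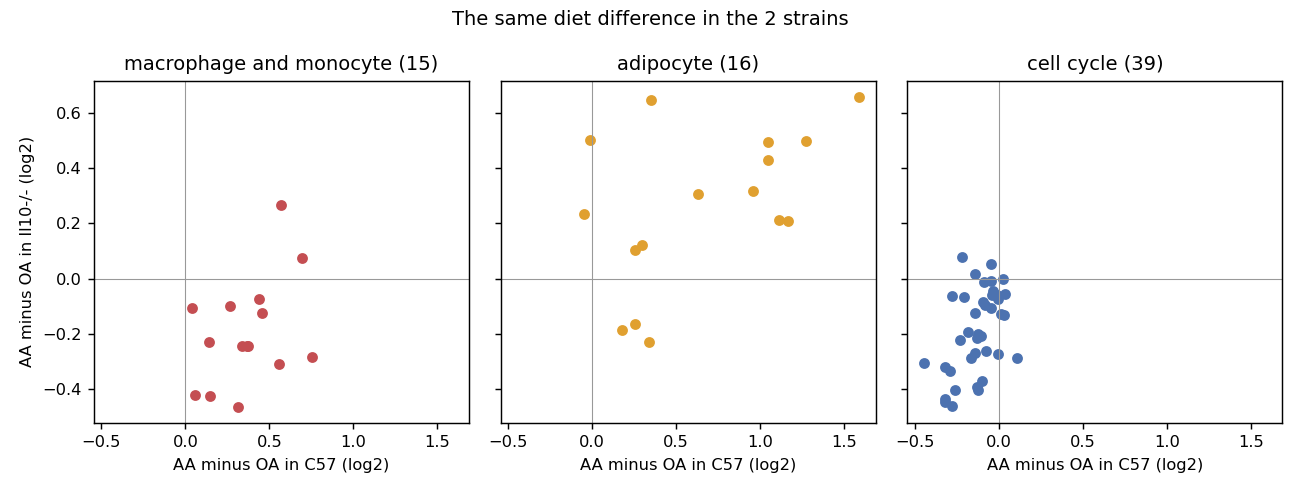
AA minus OA of each measured member of the macrophage (15), adipocyte (16) and cell cycle (39) lists in C57 mice (horizontal) and Il10-/- mice (vertical), in log2 units. Of the macrophage genes 13 of 15 lie right of 0 and below 0, while most cell cycle genes lie left of and below 0.

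Values on the other C57 diets share the AA or OA arrays with the comparison above and are given side by side only. EPA minus OA had 0 genes past an adjusted p of 0.05 (6.28% at an unadjusted p under 0.05), and AA minus CO had 0 (10.9%). The macrophage median was 0.36 for AA minus OA, 0.37 for EPA minus OA and 0.31 for AA minus CO. Gpnmb read 0.21 and 0.42 on EPA and -1.04 and -0.94 on CO, and F13a1 read 0.72 and 0.82 on EPA and 0.02 and 0.34 on CO. For both genes the EPA pools lay above the OA pools and the CO pools below both AA pools. Acot1 read -1.36 and -1.45 on EPA and -1.85 and -2.27 on CO. Ptgs2 read 0.44 and 0.44 on EPA and -0.18 and -0.23 on CO, so its AA values lay between those of CO and OA. Cck read -0.32 and -0.35 on EPA and -0.30 and -0.41 on CO, below both AA pools. The CO pools were the least alike of the C57 diets, with a correlation over genes of 0.823, and cell cycle medians were -0.06 for EPA minus OA and 0.06 for AA minus CO.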

How the data were processed

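Colon RNA pools (Cy3) and a common reference RNA (Cy5, pooled small intestine, colon, kidney, liver and fetuses of Swiss mice) were hybridised to 2-colour Agilent arrays, per the labels. The deposited values, made by the authors, were used as log2 ratios; their base and direction are not stated in the labels. Base 2 was assumed, and the direction, sample over reference, was taken from 16 reference tissue genes, of which 15 or 16 lay below 0 on every array. The submitters' processing notes name limma without a version. Signal brightness was not analysed here, and precision rests on the few arrays.

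Values equal to an array's most shared value were set to missing. Features measured on all 4 compared arrays were kept, and features of 1 gene symbol were averaged after each was centred on its 4-array mean, for 6846 genes. Symbols came from the platform annotation: 32042 features had 1 symbol and 47 several, and 31906 were matched by gene ID to RefSeq. Group means of 8 groups were fitted over 16 arrays with limma 3.58.1 in R 4.3.3 (lmFit, contrasts.fit, eBayes), without a block, and p-values adjusted by Benjamini-Hochberg over all genes. Residual degrees of freedom were 8, those of the prior 4.11, and the fit was tested on simulated data. Ptgdr could not be estimated in Il10-/- mice.

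The members and the 46 gene lists were chosen with earlier results of these data known. Named were the 15 highest and 15 lowest genes with an unadjusted p under 0.05 and no overlap between diets (since none passed the adjusted threshold), 32 genes of fatty acid handling, of which 26 were measured, and for each list described the members of smallest p. Cd248, Ugt2b5, C1qc and Cck were chosen after their values were seen, and C1qc and Cck are also members of smallest p in their lists. Gpnmb, F13a1 and Clec10a were named because of their values, as stated above. Other members named stand for the counts beside them. Lists are described by counts and medians with no test. Arrays were not paired by pool number, and deviations of same-numbered pools correlated between -0.395 and 0.407. Whether some groups shared a batch was not tested. No 2 arrays held identical values (120 pairs). Python 3.11.15, pandas 2.3.3, numpy 2.4.6 and, for figures, matplotlib 3.10.9 were used.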

Additional observations from a re-analysis of the deposited data

How the results depend on the processing

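AA minus OA in C57 gave 0 genes past an adjusted p of 0.05 under all 11 alternatives that keep the 4 arrays compared, and 0 to 14 genes when an array was left out. The 14 appeared without AA pool 2, where the lone AA pool 1 is assumed to vary like the other groups, and they include Gpnmb (2.60, adjusted p = 4.85e-05), Apoa4, Nnmt and Prm1. For EPA minus OA in C57 leaving out an array gave 0 to 5 genes. AA minus CO in C57 gave 38 genes with quantile normalization, 2 with tied values kept and 2 with the pool number as replicate block, and 0 to 1094 when an array was left out, the most without CO pool 1. AA minus OA in Il10-/- gave 0 genes with quantile normalization, 69 with array weights, 6 with only the arrays of the strain, 19 with only the 4 arrays compared and 0 with Il10-/- OA pool 1 counted as EPA, and 0 to 3 when an array was left out. The difference between strains gave 1 gene with array weights and 0 to 2 when an array was left out. The cause of these shifts was not tested.

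With the pool number as a replicate block, AA minus OA in C57 gave 0 genes and AA minus OA in Il10-/- gave 1, as without it. The counts at an unadjusted p under 0.05, 489 higher and 305 lower, were 285 to 987 and 180 to 796 when an array was left out. The 2 pools for each diet set the limit, and no signal over background was used, so dim and bright spots weigh the same.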
